A study of Homo sapiens with 49 samples.

Results

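MAX binding in Ishikawa cells was described from a pair of peak lists, one from cells given vehicle and one from cells given 17β-estradiol (E2), made by chromatin immunoprecipitation followed by sequencing (ChIP-seq). Peaks of the 2 lists that overlapped by at least 1 bp were joined, which turned 3368 DMSO peaks and 2002 E2 peaks into 4008 MAX regions. Of these, 1351 were shared, 2012 were DMSO-only and 645 were E2-only. The whole series held 528044 peaks in 45 lists. Ishikawa is an established endometrial adenocarcinoma line. Before the experiment the cells were kept in hormone-depleted medium, which both groups share, and were then treated for 1 h with DMSO or with 10 nM E2, the main natural ligand of the estrogen receptor. Each treatment was 1 library, with no replicate, so no difference between DMSO and E2 could be tested and every value below is a description of these libraries. H3K4me3 was found at the start sites of all 5 epithelial markers (CDH1, KRT8, KRT18, EPCAM and CLDN4) and of 6 of 9 markers of Mullerian tissue, among them PAX8, HOXA10, ESR1 and PGR. PAX2, SOX17 and FOXA2 had none, and the blood markers PTPRC, CD3E and SPI1 had none. Of 4 luminal breast markers 2 had H3K4me3 (not GATA3 or SPDEF), and of 4 stromal markers 1, COL1A1.

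MAX is a basic helix-loop-helix leucine zipper protein that binds DNA as a dimer, either with MYC, which activates growth genes, or with partners such as MXD proteins, MXI1, MNT and MGA, several of which repress. MAX dimers prefer the E-box, whose canonical letters are CACGTG and which reads the same on both strands. MXD and MXI1 dimers bring the SIN3A corepressor to DNA, while MGA belongs to a Polycomb complex (PRC1.6).

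The canonical E-box was more frequent at MAX summits than in the other Ishikawa lists searched, so E-boxes of named regions are shown here before the values. Each line is 30 bases of the plus strand of GRCh37 (the same assembly as hg19), read 5′ to 3′, with CACGTG in capitals. The 5 lines below come from the shared regions of highest fold enrichment that held the E-box within 50 bp of the summit.
EXOSC5 and BCKDHA promoter (chr19:41903336-41903365): cctgggcgtccgCACGTGgcttagcgttta
ATP2B2 intron (chr3:10501921-10501950): gtgagaactgccCACGTGgtcctggtgctg
BAG3 intron (chr10:121427601-121427630): cgccgccctgagCACGTGgctgttctaatc
HMOX1, upstream (chr22:35767980-35768009): cctttcccgagcCACGTGgccgtgtttttc
SPRYD4 and MIP promoter (chr12:56862288-56862317): cccctcgcgcacCACGTGctaggggagcgg
The next 6 lines are E-boxes in shared regions at start sites of genes for growth, metabolism, lysosomal breakdown and the circadian clock.
NCL, nucleolin (chr2:232328551-232328580): tccggggcccacCACGTGtcggcttgccag
NOP2, rRNA methylation (chr12:6677405-6677434): cgggcggccctcCACGTGcaatccggacct
NME1, nucleoside diphosphate kinase (chr17:49230942-49230971): agtgctgcgaacCACGTGggtcccgggcgc
HK2, hexokinase (chr2:75062091-75062120): gattgctgcgccCACGTGggagggagcccc
CTSF, cathepsin F (chr11:66336111-66336140): gtttacaggaggCACGTGgggcgcgcaggg
TEF, clock output factor (chr22:41777431-41777460): cggctgcggctcCACGTGacccgcgggggg
The last 3 lines are from regions called in a single list, DMSO-only for BPIFB1 and MNT and E2-only for CCND2.
BPIFB1, distal (chr20:31920943-31920972): gctcccctcgccCACGTGgccctggcaggg
MNT promoter (chr17:2303922-2303951): ccggccgctcacCACGTGctctctgttgtt
CCND2 promoter (chr12:4378563-4378592): agccccttccccCACGTGtggatgacgtca
Summit windows of 101 bases are given for 3 regions, the promoter of EXOSC5 (79 bp from its start site), the strongest DMSO-only region, which held no CACGTG, and the strongest E2-only region, at CCND2.
EXOSC5, shared (chr19:41903296-41903396): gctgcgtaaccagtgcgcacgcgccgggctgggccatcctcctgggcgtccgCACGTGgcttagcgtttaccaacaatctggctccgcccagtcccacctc
C18orf21, DMSO-only (chr18:33530456-33530556): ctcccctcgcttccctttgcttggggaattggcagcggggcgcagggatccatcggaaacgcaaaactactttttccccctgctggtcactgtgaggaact
CCND2, E2-only (chr12:4378550-4378650): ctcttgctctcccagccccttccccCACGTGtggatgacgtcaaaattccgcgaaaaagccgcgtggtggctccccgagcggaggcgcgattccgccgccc

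The DMSO list was the longer, 1.68 times the E2 list, and covered 896 kb against 492 kb. DMSO peaks had a fold enrichment (ChIP reads at the summit over the local background expected from the control) between 2.92 and 26.3, with a median of 7.10. E2 peaks lay between 3.53 and 27.1, with a median of 8.31. Whole read counts at the summit, called tags here, could be recovered from each peak's p-value and fold enrichment, and ran from 14 to 134 (median 33) with DMSO and from 13 to 129 (median 29) with E2. The smallest local background in each list put the libraries at about 18.1 M tags with DMSO and 15.3 M with E2, so the E2 library had 0.849 of the DMSO depth. As a measure of how lists from the same treatment differ, the replicated RNA polymerase II libraries of T-47D, a breast carcinoma line given the same treatments, differed 1.85-fold in peak number with DMSO and 1.98-fold with E2. Of the shorter of these lists, 78.5% and 86.8% of peaks were found in the longer, while 67.8% of E2 MAX peaks were found in the DMSO MAX list. The Pol2 lists belong to another antibody and another line, and no replicate of MAX was available to set beside these numbers.

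Peaks with a higher −log10 p-value were more often shared. A shared region had to pass the threshold in both lists, so the class rule itself leans towards such peaks. Of DMSO peaks, 40.3% (exact 95% interval 38.6 to 41.9) overlapped an E2 peak, and of E2 peaks, 67.8% (65.7 to 69.8) overlapped a DMSO peak. Here and below, intervals on a share are exact (Clopper-Pearson) and cover counting error only. When DMSO peaks were put in 4 bins of equal size by −log10 p-value, the overlapped share rose from 17.5% in the weakest bin to 26.4%, 42.6% and 74.6% in the strongest. For E2 peaks the same steps were 46.7%, 59.6%, 72.6% and 92.2%. The median fold enrichment of shared regions was 8.41 with DMSO and 8.56 with E2, against 6.47 in DMSO-only regions and 8.08 in E2-only regions. DMSO-only regions made up 50.2% of all regions and E2-only regions 16.1%, and these shares, like the classes themselves, rest on the threshold of each list.

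The DMSO-only and E2-only regions passed the threshold with different tags and backgrounds. DMSO-only regions had a median of 31 tags over a local background of 3.93, whereas E2-only regions had 24 tags (28.3 at the DMSO depth) over a background of 1.899 (2.24 at the DMSO depth). Their median −log10 p-values were 17.9 and 17.7, close to each other, and both lists began at a −log10 p-value of 10.0. The part of the local background in the classes was not tested. At the E2 depth the median DMSO-only region would have had 26.3 tags, where 20 were needed to pass, and 105 of 2012 (5.22%) would have fallen below the threshold. The DMSO library is the deeper, so the same step on E2-only regions could remove none. Both classes had many narrow peaks, since 44.6% of DMSO-only and 53.2% of E2-only peaks were at most 1.25 fragment lengths wide, compared with 19.2% (DMSO) and 27.8% (E2) of the peaks in shared regions. At the edge of the rule, the smallest overlap that made a region shared was 6 bp, and 9 shared regions overlapped by under 50 bp, while the nearest miss was 1 bp for a DMSO-only and 15 bp for an E2-only region. A peak of the other list lay within 500 bp of 97 DMSO-only (4.82%) and 34 E2-only (5.27%) regions.

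Regions are shared where both lists passed the threshold, which leaves out regions that were high in 1 library and low in the other. Within the shared regions, the median log2 ratio of fold enrichment, E2 over DMSO, was 0.01, with quartiles of −0.21 and 0.25 and a full range of −1.27 to 1.06. Of the 1351 regions, 65 (4.81%) were at least 1.5-fold higher with E2 and 62 (4.59%) at least 1.5-fold lower. With tags at the summit per unit of depth, which leaves the background out, the median log2 ratio was 0.06 and the SD 0.30. The SD expected from counting error of the tags had a median of 0.35, and its part in the spread was not tested. These values describe regions called in both lists and cannot show how far binding differed between the treatments. Promoter regions (median log2 ratio of fold enrichment 0.01), distal regions (0.04) and regions with the E-box (−0.01) sat at similar values. Across shared regions the log fold enrichments of the 2 libraries had a Pearson r of 0.759 and a Spearman rho of 0.742 (n = 1351 regions, which share libraries and control).

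**Figure D1:**
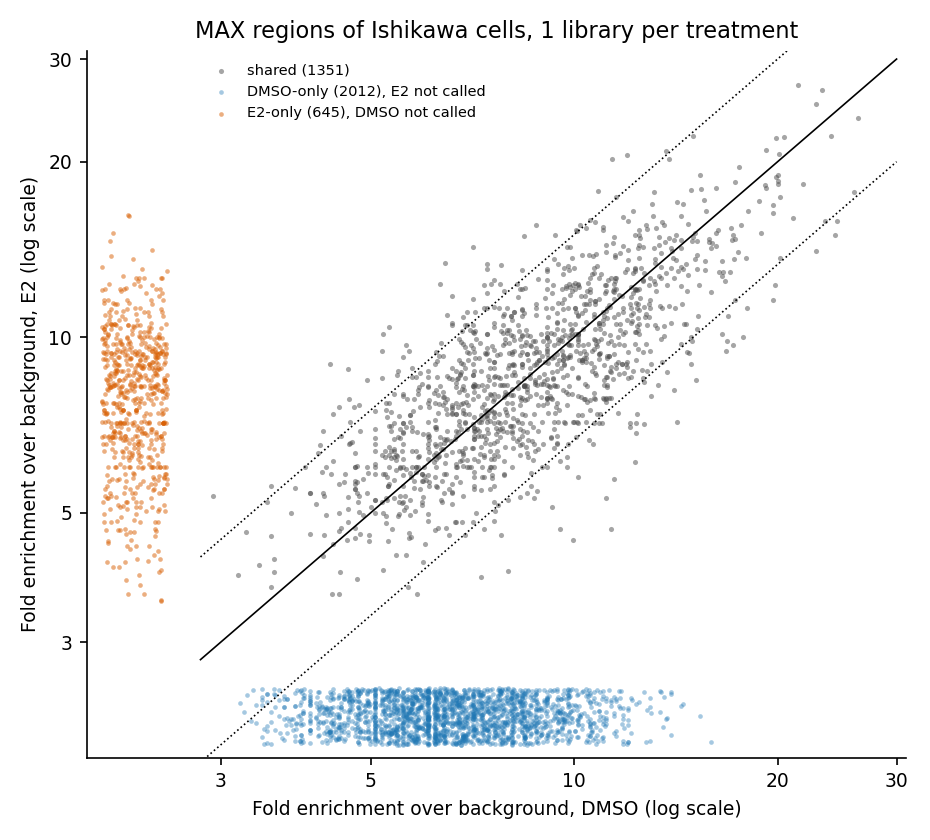
Fold enrichment of each MAX region with DMSO (x axis) and with E2 (y axis), both on log scales, 1 library each. Regions called in 1 list alone are drawn as a strip at the low end of the axis of the list that lacks them, where their position has no meaning. Shared regions lie along the diagonal, with a median log2 ratio of 0.01, and the DMSO-only strip reaches 15.9 while the E2-only strip reaches 16.2.

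The strongest shared regions were of similar height with both treatments. The region over the shared promoter of EXOSC5, a subunit of the RNA exosome, and BCKDHA, a subunit of the branched-chain ketoacid dehydrogenase, had 134 tags with DMSO and 129 with E2, the most in either list, and a fold enrichment of 22.8 and 25.1. An intronic region of ATP2B2, which encodes a plasma membrane calcium pump, had a fold enrichment of 26.3 and 23.8 (63 and 51 tags). An intronic region of BAG3, a co-chaperone of HSP70, had 21.4 and 27.1. A region 8316 bp from the start site of HMOX1, heme oxygenase, had 20.4 and 22.04, and an intronic region of PIP5K1C, a phosphoinositide kinase, had 24.0 and 22.1 with no CACGTG near its summit. The promoters of FBXO32, a muscle-atrophy ubiquitin ligase, and SPRYD4 had 20.1 and 20.6 and 19.9 and 21.9, and the GET4 region, which lies in SUN1, had 23.3 and 26.5. Of these 8, all but PIP5K1C carried the E-box within 50 bp of the summit.

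The shared regions below were picked as the extremes of the ratio of fold enrichment. In some of them tags were close between the libraries. At the promoter of MCCC1, a subunit of methylcrotonyl-CoA carboxylase, fold enrichment was 6.43 with DMSO and 13.4 with E2, and tags were 56 and 76. At the promoter of PXDN, peroxidasin, fold enrichment was 7.09 and 14.3 with 27 tags in both libraries, while the local background was 2.95 with DMSO and 0.963 with E2. The other 2 of the 4 highest were an intronic region of RMI2 (6.33 and 12.4) and a region nearest to N6AMT1 (4.35 and 8.99). The latter lay 491891 bp from the start site of N6AMT1. In the other direction, an intronic region of RASA3, a RAS GTPase-activating protein, had a fold enrichment of 11.3 with DMSO and 4.69 with E2, but tags per unit of depth were 1.01 times the DMSO value and the background was 2.71 and 6.68. The promoter of AGPAT5, an enzyme of phosphatidic acid synthesis, was lower in both measures, with a fold enrichment of 9.98 and 4.49 and 58 and 26 tags. CHD7 (11.1 and 5.30) and LIPT1 (9.53 and 4.69) completed the lowest 4, with tags per unit of depth of 0.809 and 0.896 times the DMSO value. The part of the local background in these ratios was not tested.

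E2-only regions lay away from promoters more than the other classes. A region was called promoter where it overlapped 250 bp either side of an annotated start site, near where its summit lay within 5 kb of one, and distal otherwise. Promoters held 27.3% (23.9 to 30.9) of E2-only regions, 51.7% (49.0 to 54.4) of shared regions and 66.8% (64.7 to 68.9) of DMSO-only regions. Distal regions were 43.6%, 25.4% and 12.6% of the same classes. The median distance from summit to the nearest start site was 3433 bp for E2-only, 351 bp for shared and 164 bp for DMSO-only regions. As a ruler, 70.3% of TAF1 peaks, 68.7% of SIN3A peaks, 40.7% of LSD1 peaks and 27.5% of JUN peaks of the same cells (DMSO or stripped medium) overlapped promoters. Summits lay in introns in 49.9% of E2-only, 42.4% of shared and 38.9% of DMSO-only regions, and in UTRs in 5.43%, 16.4% and 22.6%.

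**Figure D2:**
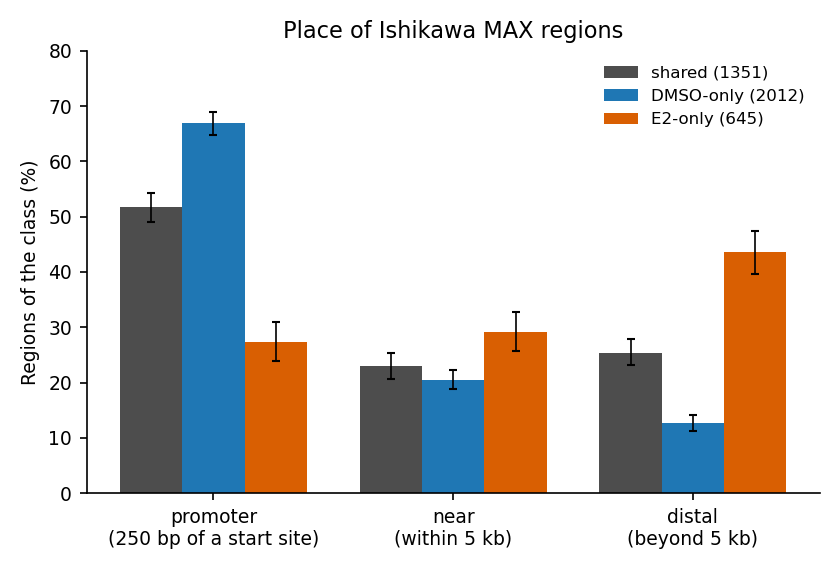
Share of each class of MAX region (y axis, percent) at promoters, near promoters and at distal sites (x axis), with exact 95% intervals as bars. DMSO-only regions are highest at promoters (66.8%) and E2-only regions highest at distal sites (43.6%).

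Of the 8 strongest E2-only regions 1 was at a promoter, and of the 8 strongest DMSO-only regions 3 were, beside 27.3% and 66.8% of the whole classes. The strongest E2-only regions included the promoter of CCND2, cyclin D2 (16.2-fold, 33 tags). Introns of NDUFA11 (16.2), a subunit of mitochondrial complex I, and of NFIC (15.1), a nuclear factor I protein, were among them. So were introns of CRY2 (14.1), a clock repressor, and of SLC7A5 (13.6), an amino acid transporter. A region in an exon of MGST1 had 14.6. An intergenic region had 13.2, and it lay 594265 bp from the start site of CAAP1, the nearest protein-coding gene. The promoter was that of CCND2. The strongest DMSO-only regions were those nearest to C18orf21 (15.9), MYT1L (15.4), CYP11B2 (14.5), IGFL1 (14.4), ALG10 (13.9), ZFP3 (13.9), MGMT (13.9), a DNA repair methyltransferase, and BPIFB1 (13.7). ZFP3 and MGMT were bound at their own promoters and the MYT1L region lay at a non-coding start site, and the ALG10 region, which lay 671497 bp from that gene's start site, overlapped no other Ishikawa list compared. For CCND2, 33 tags at the E2 depth correspond to 38.9 at the DMSO depth, where 14 would have been needed to pass. For C18orf21, 58 tags correspond to 49.3 at the E2 depth, where 17 would have been needed.

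Chromatin marks were read from any overlap, of 1 bp or more, with the lists of the DMSO arm, which for histone marks were made after 8 h and for SIN3A from stripped medium. H3K4me3, a mark of active and poised promoters, was present at 87.1% (85.2 to 88.9) of shared, 90.6% (89.2 to 91.8) of DMSO-only and 68.8% (65.1 to 72.4) of E2-only regions. H3K4me1, the mark of enhancers, was at 37.1%, 15.6% and 48.2%. Regions with H3K4me1 and no H3K4me3 were few in every class, at 3.997%, 3.38% and 13.2%, and regions with neither mark were 8.88%, 6.06% and 18.0%. H3K27me3, the Polycomb mark, was at 39.8%, 14.3% and 35.7%, but its list of 2199 peaks lay 81.5% on H3K4me3 and 47.4% on MAX regions. Its list from the E2 arm gave 52.6%, 45.4% and 31.8%, which moved DMSO-only regions above E2-only regions.

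The factors of the promoter machinery covered most MAX regions. TAF1, a subunit of the general factor TFIID, was at 90.4% of shared, 90.3% of DMSO-only and 71.0% of E2-only regions, and SIN3A at 92.4%, 91.1% and 69.1%. Neither was present at 5.33%, 5.86% and 21.2%. LSD1, a histone demethylase, was at 59.3% of shared, 36.2% of DMSO-only and 65.9% of E2-only regions, and with the E2 list the 3 shares were 81.9%, 71.1% and 71.0%. JUN, a subunit of the AP-1 factor, was at 35.5%, 13.4% and 36.9%, and with the longer JUN list of E2-treated cells at 83.2%, 66.0% and 85.0%. RARA, the retinoic acid receptor, was at 0.888%, 0.298% and 1.09% with its DMSO list and at 32.3%, 14.0% and 36.3% with its E2 list. The E2 lists of JUN and RARA held 18311 and 2883 peaks against 3768 and 137 with DMSO, so the larger shares come with longer lists. MYC, the best-known partner of MAX, was called at 2 of the 4008 regions in the DMSO list of 61 peaks and at 1 in the E2 list of 2 peaks.

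Promoter and distal regions differed within each class too. Among promoters, H3K4me1 was at 12.8% of shared, 4.39% of DMSO-only and 16.5% of E2-only regions, and JUN at 25.1%, 9.89% and 22.7%. Among distal regions H3K4me1 was at 65.0%, 55.1% and 59.8%, and JUN at 51.9%, 32.3% and 45.9%. The order of the classes for H3K4me1 and JUN thus kept DMSO-only lowest at promoters, where E2-only and shared regions were close for JUN. For TAF1 and SIN3A the classes were close at promoters. TAF1 was there at 97.6% of shared, 97.7% of DMSO-only and 94.9% of E2-only regions, and SIN3A at 98.6%, 98.4% and 96.0%. Among distal regions TAF1 was at 77.6%, 64.6% and 55.9%, and SIN3A at 80.5%, 62.2% and 52.0%.

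**Figure D3:**
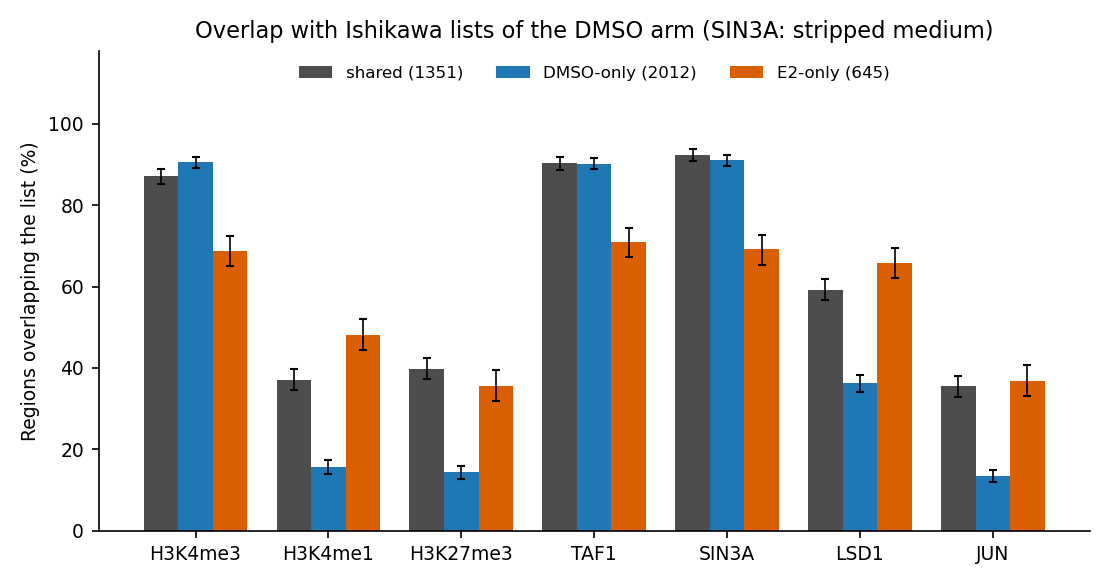
Share of each class of MAX region (y axis, percent) that overlapped each Ishikawa list of the DMSO arm (x axis), with exact 95% intervals as bars. DMSO-only regions are lowest for H3K4me1 (15.6%), LSD1 (36.2%) and JUN (13.4%), and E2-only regions are lowest for H3K4me3 (68.8%), TAF1 (71.0%) and SIN3A (69.1%).

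CACGTG was within 50 bp of the summit in 465 shared regions (34.4%, 31.9 to 37.02), 353 DMSO-only regions (17.5%, 15.9 to 19.3) and 72 E2-only regions (11.2%, 8.84 to 13.9). In windows of the same length it was at 2.87% of TAF1 summits, 4.36% of SIN3A summits, 2.34% of LSD1 summits, 1.54% of JUN summits and 2.54% of 145987 annotated start sites of protein-coding genes. All 3 classes held it more often than these lists did. At promoters CACGTG was at 40.7% of shared, 15.7% of DMSO-only and 15.9% of E2-only regions, so the DMSO-only and E2-only classes were close there. Among distal regions it was at 24.5%, 21.7% and 9.25%. In each class, regions were put in 4 bins of equal size by −log10 p-value, and the share was highest in the strongest bin. In shared regions it was 20.1%, 25.7%, 36.2% and 55.6% from the weakest to the strongest bin, in DMSO-only regions 10.9%, 14.1%, 18.5% and 26.6%, and in E2-only regions 4.32%, 11.8%, 10.6% and 18.0%. At JUN regions the share was lower, at 16.3% against 44.4% elsewhere in shared regions, 7.81% against 19.0% in DMSO-only regions and 2.101% against 16.5% in E2-only regions.

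E-boxes lay at the summit. In shared regions there were 11.1 CACGTG per 100 regions and 20 bp within 20 bp of the summit, and 0.688 between 200 and 300 bp away. The same values were 5.19 and 0.477 in DMSO-only regions, 2.64 and 0.403 in E2-only regions and 0.615 and 0.466 around TAF1 summits. Among the flanking letters, CCACGTGG was the most frequent 8-letter form in shared regions (25.2% of 465), CCACGTGC in DMSO-only regions (28.3% of 353) and CCACGTGA in E2-only regions (18 of 72). A related E-box, CACGCG, was at 12.4% of shared, 13.7% of DMSO-only and 4.50% of E2-only summits, and CATGTG at 13.1%, 7.46% and 12.4%. The AP-1 site TGACTCA was at 4.37%, 2.09% and 6.05%, against 12.1% of JUN summits. The GC box, GGGCGG, was at 27.9%, 26.7% and 18.1%. GC content of the windows was 63.8% in shared, 65.4% in DMSO-only and 58.2% in E2-only regions, and CpG dinucleotides numbered 6.69, 8.00 and 3.99 per window, so classes also differ in base composition. All motifs were sought on both strands, and matches of different motifs can overlap. The palindromic consensus estrogen response element was at 2 shared, 0 DMSO-only and 2 E2-only summits.

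**Figure D4:**
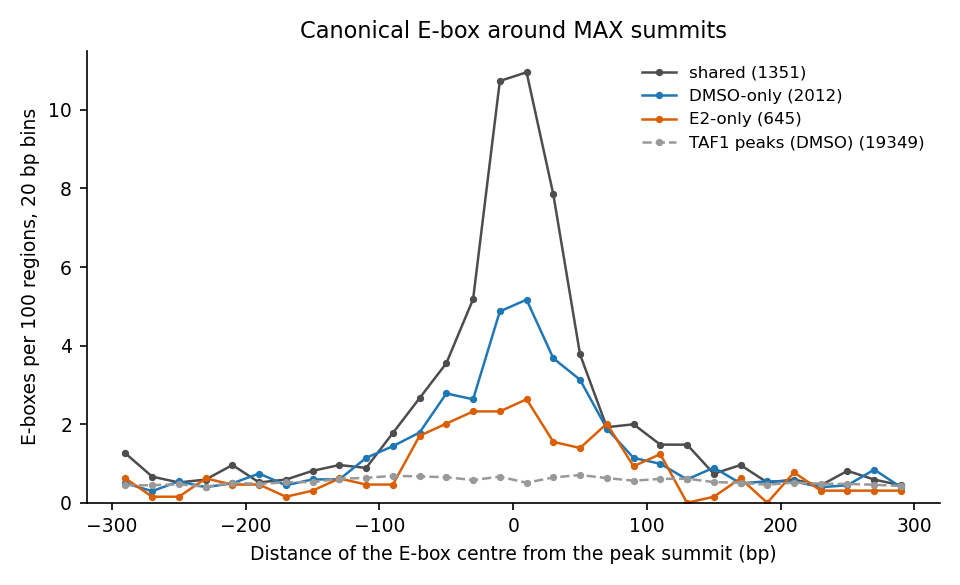
Number of CACGTG E-boxes per 100 regions in bins of 20 bp (y axis) by distance of the E-box centre from the peak summit (x axis, bp), for the 3 classes and for TAF1 summits (dashed). In the bin from 0 to 20 bp after the summit, shared regions stand at 10.95, DMSO-only at 5.17 and E2-only at 2.64, while TAF1 regions stand at 0.512.

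In a second cell line, T-47D, MAX was called at 25.02% of the shared regions, 13.3% of the DMSO-only regions and 7.13% of the E2-only regions in either of its 2 MAX lists. The E-box share rose with the number of the 4 MAX lists that held a region, from 14.3% in 1 list to 27.6% in 2, 47.9% in 3 and 74.4% (64 of 86) in all 4. A region in all 4 is also in the T-47D DMSO list of 199 peaks, of which 70.9% held CACGTG, against 19.4% of T-47D E2 peaks. Regions in that DMSO list held it in 74.6% (shared), 62.5% (DMSO-only, 15 of 24) and 57.1% (E2-only, 4 of 7) of cases. The part of that list in the rise was not tested. H3K4me3 of T-47D was at 47.8% of shared, 72.2% of DMSO-only and 18.1% of E2-only regions.

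MAX regions overlapped a start site of 2177 of 20090 protein-coding genes (10.8%). Of all genes, 731 (3.64%) had a shared region there, 1283 (6.39%) a DMSO-only region alone, and 144 (0.717%) an E2-only region alone. Another 19 had separate regions in both lists. Of the 13532 genes with H3K4me3 at a start site, 2164 (16%) had a MAX region. The gene lists below were drawn up after earlier results of these data were known, and no list is tested. Each number of genes with MAX should be read against the 10.8% of all genes and 16% of genes with H3K4me3. Each number of genes with an E-box should be read against 571 of the 2177 genes with MAX.

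Growth genes had MAX at many start sites. Of 33 ribosome biogenesis genes, which make and process rRNA, 25 had a MAX region, 15 shared and 10 DMSO-only, and 13 of them carried an E-box. NCL, nucleolin, had a fold enrichment of 17.5 with DMSO and 19.6 with E2 (89 and 83 tags). NOP2, a methyltransferase of rRNA, had 10.3 and 9.72, NPM1, nucleophosmin, had 8.12 and 7.03, NOLC1 had 12.8 and 8.77, and RRS1 had 8.25 and 11.7. None of these 5 differed between the libraries by 1.5-fold or more. The other shared genes were PES1, RRP9, RRP12, GNL3, POLR1B, PPAN, NOP14, WDR43, PNO1 and IMP4, between 4.81 (RRP12) and 9.47 (PPAN) with DMSO and between 5.01 (RRP12) and 9.03 (PES1) with E2. The DMSO-only genes included FBL (8.37), NOP56 (7.98) and NOP58 (5.97), which are core proteins of box C/D particles that methylate rRNA, as well as POLR1A and POLR1D (7.10), subunits of RNA polymerase I. Of 78 cytosolic ribosomal protein genes, 30 had MAX, 12 shared, 15 DMSO-only and 3 E2-only. RPS26 had 6.76 and 9.13 and RPL5 had 8.32 and 7.65, and the E2-only genes were RPL36 (5.49), RPS3 (5.33) and RPS16 (3.99).

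Of all 2177 genes with MAX, 731 had a shared region and 1283 a DMSO-only region alone, and the metabolic and protein-folding lists are to be read against those counts. Of 14 glycolysis genes, 9 had MAX, and 7 of them were DMSO-only. HK2, hexokinase, had a fold enrichment of 8.70 with DMSO and 7.02 with E2, and LDHA, lactate dehydrogenase, had 4.06 and 4.60, while SLC2A1, a glucose transporter, was DMSO-only at 9.78 and TPI1 DMSO-only at 8.74. Of 19 genes of nucleotide and polyamine synthesis, 10 had MAX. NME1 had 10.9 and 11.7, PAICS had 8.55 and 6.24, TYMS, thymidylate synthase, was DMSO-only at 10.0, and AMD1, of polyamine synthesis, was E2-only at 5.66. Chaperonin and mitochondrial import genes had MAX at 10 of 19, with CCT2 at 7.62 and 6.58, translation factors at 6 of 12, with EIF4A1 at 10.8 and 7.38, and tRNA synthetases at 9 of 20, with IARS1 at 6.71 and 8.47. EIF4A1 had another shared region at 7.45 and 8.60 and a DMSO-only region at 7.35. Of 40 lysosome and autophagy genes, 12 had MAX, with CTSF at 15.2 and 10.3 and WIPI1 at 10.5 and 12.4.

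**Figure D5:**
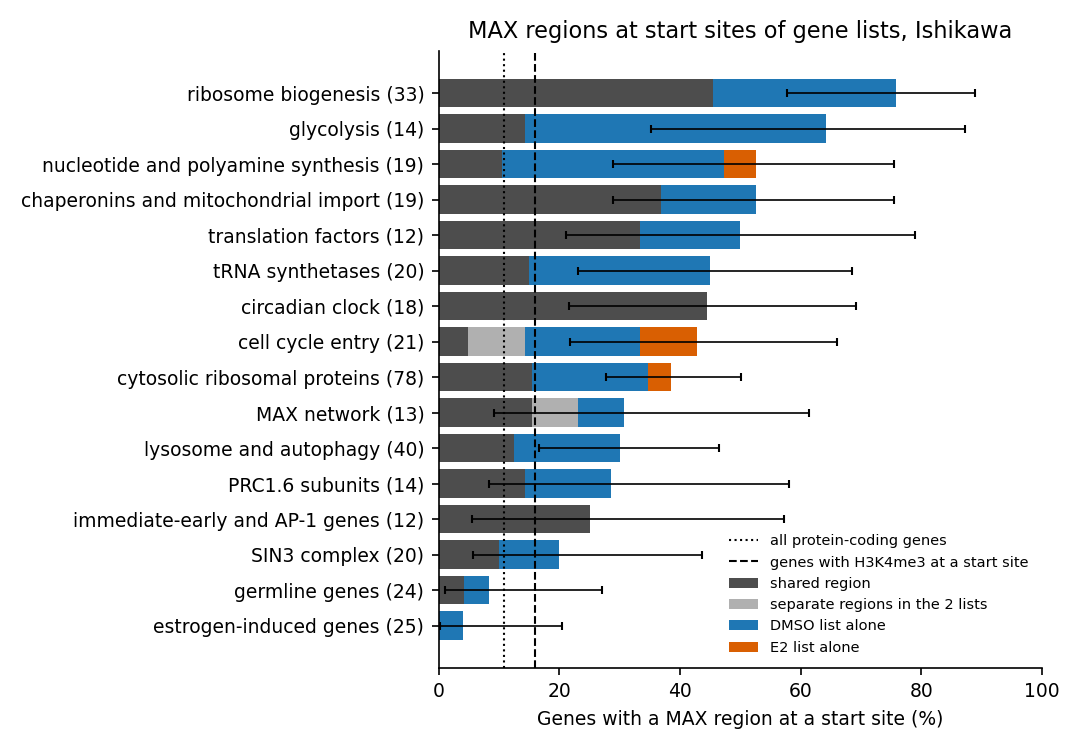
Share of each gene list (x axis, percent of genes) with a MAX region at a start site, split by class, with lines at all protein-coding genes (10.8%) and at genes with H3K4me3 (16%). Ribosome biogenesis is highest, with 25 of 33 genes, and estrogen-induced genes lowest, with 1 of 25.

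Each clock gene with MAX at a start site had a shared region there. Of 18 such genes, 8 had MAX, namely PER1, PER2, CRY2, NR1D1, NR1D2, DBP, TEF and CIART, and 4 carried an E-box. CRY2 had a fold enrichment of 10.1 with DMSO and 15.2 with E2 (46 and 65 tags), and TEF had 9.11 and 13.1 (40 and 50 tags). NR1D1, which encodes the heme receptor REV-ERBα, was lower with E2 at 12.3 and 6.12, with 72 tags and 46 tags (54.2 at the DMSO depth). DBP, another clock output factor, had a shared region at 8.07 and 10.9 and an E2-only region at 7.15 (36 tags), and PER2 a shared region at 7.44 and 7.35 with an E2-only region at 5.71 (19 tags). PER1, a clock repressor, had 2 shared regions at 7.93 and 7.46 and at 8.13 and 7.28, NR1D2 had 5.51 and 7.32, and CIART had 5.73 and 7.35. Fold enrichment was thus above the DMSO value with E2 at CRY2, TEF, DBP, NR1D2 and CIART and below it at PER1, PER2 and NR1D1. Of the 21 cell cycle entry genes, 9 had MAX. CDK4 was shared (6.69 and 8.35), CCND2 and E2F3 (9.42) were E2-only, 4 were DMSO-only, and CCNB1 and MCM7 had separate regions in each list.

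The MAX network itself was bound at 4 of 13 genes. MXI1, a repressing partner, had a shared region at 11.7 and 10.3 and a DMSO-only region at 8.11. MGA had a shared region at 6.24 and 6.96 and another at 6.04 and 5.70. MNT had separate regions, E2-only at 9.45 and DMSO-only at 5.92, and MYCL was DMSO-only at 6.33. Subunits of PRC1.6 had MAX at 4 of 14, SIN3 complex genes at 4 of 20, and germline genes at 2 of 24. The AP-1 and immediate-early genes JUN (7.50 and 6.56), JUNB (11.6 and 8.66) and FOSL2 (6.77 and 5.64) were shared, 3 of 12.

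Of 25 estrogen-induced genes, 19 had H3K4me3 at a start site and 1, FKBP4, an HSP90 co-chaperone, had a MAX region at a start site, DMSO-only at 4.06, with an interval of 0.101% to 20.4% on the share. Within 100 kb of a start site, 12 of the 25 genes had 25 regions between them, 7 shared, 13 DMSO-only and 5 E2-only. The share of all protein-coding genes with a MAX region within 100 kb was not computed. The count of 12 therefore cannot be called high or low. Of the 25 regions, 18 overlapped the JUN list of E2-treated cells, as did 3000 (74.9%) of all 4008 regions. GREB1, a coregulator of the estrogen receptor, had a shared region 942 bp from a start site (9.37 with DMSO, 8.24 with E2). TGFA, a growth factor, had a shared region 62233 bp away at 15.2 and 14.6. CCND1, cyclin D1, had a DMSO-only region 753 bp away at 9.83. STC2, stanniocalcin, had a shared region 3664 bp away at 5.75 and 8.85.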

How the data were processed

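ChIP-seq peak lists of Ishikawa MAX were used, 1 library per treatment. Per the submitters' processing notes, reads were placed with Bowtie 1.1.2 on hg19 and the authors called peaks with MACS2 2.1.0.20140616 in each library. For each peak the authors deposited fold enrichment (a ratio to local background), −log10 p-values, −log10 q-values and a score. Tags were recovered from the p-value and fold enrichment (100% whole within 0.001 in −log10 p-value). Depths assume a genome of 2700 Mb. Overlaps of 1 bp, places (GENCODE 44 start sites on GRCh37) and motifs were computed with Python 3.11.15, numpy 2.4.6, pandas 2.3.3, scipy 1.17.1 and pyfaidx 0.9.0.4, and figures with matplotlib 3.10.9. With 1 library per group, no test was made. Scripts were tested on simulated data. Alternatives changed the overlap, thresholds, promoter width, mark lists and motif window. Named genes were the 8 strongest regions per class, 4 highest and 4 lowest ratios among shared regions with a −log10 p-value of at least 20, and genes of 16 lists with a MAX region at a start site (up to 4 per list by fold enrichment, and each E2-only one). Genes named beyond these were chosen after their values were seen. The 8 shared regions were ranked by the lower of their 2 fold enrichments. Members and lists were chosen with earlier results of these data known. A few items that the naming rule covers are not reported here.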

Additional observations from a re-analysis of the deposited data

Results flagged for a closer look

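The number of MAX regions moved in opposite directions in the 2 cell lines. In Ishikawa the log2 ratio of E2 to DMSO was −0.75 (3368 and 2002 peaks) and in T-47D it was 2.91 (199 and 1492 peaks), a difference of −3.66. Each value comes from 1 library per treatment and the difference was not tested. Estimated from the smallest local background, the T-47D E2 library had about 2.32 M tags against 17.2 M with DMSO. There the peak number was higher in the library estimated as the shallower. That estimate rests on 6 E2 and 2 DMSO peaks at the smallest background, against 102 and 106 in Ishikawa, so it is less firm. The Ishikawa libraries had 15.3 M with E2 and 18.1 M with DMSO, and there the shallower library had fewer peaks. The part of depth was not tested.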

How the results depend on the processing

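No paired analysis was possible because each MAX group is 1 library, and no library could be left out for the same reason. Of the values recomputed under alternatives, 89 stayed within their interval or within 1.5-fold of their count, and 78 moved. Shares below are percentages of a class, in the order shared, DMSO-only, E2-only unless a class is named, and no cause of a move was tested. The order of the classes held under 10 of 10 alternatives for promoters and for CACGTG, and under 9 of 10 for H3K4me3, the exception being a fold enrichment of at least 10. In each case 1 of the 10, keeping peaks wider than 100 bp, removed no peak. The narrowest peaks were 162 bp (DMSO) and 158 bp (E2), so that alternative could change no value, and its values are among the 89. Within promoters alone, CACGTG was at 15.7% of DMSO-only and 15.9% of E2-only regions. The order held under 2 of 2 for H3K4me1, JUN, SIN3A and RARA, and for H3K27me3, LSD1 and TAF1 it changed with the lists of the E2 arm. Within each place, however, JUN was at a larger share of shared than of E2-only regions. These shares were 25.1% and 22.7% at promoters, 40.6% and 36.7% near them and 51.9% and 45.9% at distal sites. H3K4me1 was at 65.0% of shared and 59.8% of E2-only distal regions, but at 12.8% and 16.5% at promoters.

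With a reciprocal overlap of 50%, 59.5% of E2 peaks were in a shared region, promoters held 48.8% of shared and 36.05% of E2-only regions, and H3K4me3 was at 74.6% of E2-only regions. With a −log10 p-value of at least 15, CACGTG was at 19.97% of DMSO-only and 13.9% of E2-only regions. With a fold enrichment of at least 10, 310 shared, 288 DMSO-only and 238 E2-only regions remained, 56.6% of E2 peaks were shared, promoters held 32.3% of shared and 41.0% of DMSO-only regions, H3K4me3 was at 76.1%, 80.9% and 77.3%, and CACGTG at 41.6%, 26.7% and 23.5%. With the DMSO list shortened to the length of the E2 list, 921 regions were DMSO-only, 54.1% of E2 peaks were shared, promoters held 32.2% of E2-only regions, H3K4me3 was at 87.4% of DMSO-only and 74.9% of E2-only regions, and CACGTG at 39.0% of shared and 23.7% of DMSO-only regions. With a −log10 p-value of at least 20 in a list against all of the other, 673 regions were DMSO-only and 198 E2-only, 81.5% of E2 peaks were shared, promoters held 68.9% and H3K4me3 87.1% of DMSO-only regions, and CACGTG was at 37.9%, 24.8% and 16.7%.

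With 1000 bp either side of a start site, promoters held 59.1%, 79.6% and 35.8%, and 12.8% of protein-coding genes had a MAX region. With protein-coding start sites alone, promoters held 47.1% of shared and 62.1% of DMSO-only regions. With the MAX summit inside the other list's region, H3K4me3 was at 79.5%, 87.6% and 59.1%, H3K4me1 at 22.5%, 10.0% and 31.6%, and in shared and DMSO-only regions H3K27me3 was at 36.2% and 11.5%, LSD1 at 55.5% and 31.2%, and JUN at 32.3% and 11.7%, with RARA at 0.444% of shared regions. With the lists of the E2 arm, H3K4me1 was at 33.5%, 12.9% and 36.4%, H3K27me3 at 52.6%, 45.4% and 31.8%, TAF1 at 83.6%, 85.0% and 62.6%, LSD1 at 81.9%, 71.1% and 71.0%, JUN at 83.2%, 66.0% and 85.0%, RARA at 32.3%, 14.0% and 36.3%, and SIN3A (full medium) at 84.9% of shared and 79.6% of DMSO-only regions. Within 25 bp of the summit CACGTG was at 23.5%, 10.8% and 6.202%, and within 100 bp at 42.2%, 25.3% and 16.4%.

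Chosen after seeing the data, DMSO peaks re-scored at the E2 depth left 1330 shared, 1907 DMSO-only and 666 E2-only regions, and summit tags per unit of depth gave a median log2 ratio of 0.06. A region absent from a list is one that did not pass its threshold, and the part of depth in the classes was not tested beyond that re-scoring. With 1 library per treatment the treatment and the library cannot be told apart.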

Other observations

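MAX regions were spread unevenly over chromosomes. Chromosome 12 held 11.9% of shared, 13.2% of DMSO-only and 11.6% of E2-only regions, and chromosome 10 held 9.92%, 8.75% and 7.13%. In the other Ishikawa lists compared, chromosome 12 held 5.22% of SIN3A, 5.25% of H3K4me3, 5.35% of TAF1, 7.67% of H3K4me1, 8.04% of LSD1, 8.91% of RARA (E2) and 9.02% of JUN peaks. Chromosome 10 held 4.43% of SIN3A, 4.57% of H3K4me3, 4.59% of TAF1, 5.94% of JUN, 6.23% of LSD1, 6.42% of RARA (E2) and 6.49% of H3K4me1 peaks. Of H3K4me3 regions, 26.01% on chromosome 12 and 21.2% on chromosome 10 held a MAX region, against 9.64% on the other chromosomes together. The median tags at DMSO summits were 35 on chromosome 12, 32 on chromosome 10 and 33 elsewhere.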
